A study of Rattus norvegicus with 4 samples.

Results

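Fatty acids that enter a liver cell are carried by small binding proteins, activated to acyl-CoA by synthetases and released again from coenzyme A by thioesterases, which sets how much acyl-CoA is open to oxidation or esterification. Genes of each of these steps are classical targets of PPARα, the nuclear receptor that fibrate drugs activate in rodent liver. The genes described here are 6: the binding proteins Fabp3 and Fabp4, the long-chain acyl-CoA synthetase Acsl1 and the thioesterases Acot1, Acot2 and Acot3. They were chosen by gene symbol, as all spots listed for them, and came to 5 cDNA clones on 9 of the 7688 spots of each array. The probe annotation names 3102 genes under 1 symbol, 4 of them described here, and gives Acot1 and Acot3 jointly for 1 clone. All 36 values of these spots were measured and all 5 clones entered the test.

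The arrays were 4 two-colour cDNA arrays, on which RNA of a treated liver and of a control liver compete for the same spotted clones. Each carried total liver RNA of 1 female Fischer rat dosed with ciprofibrate, a fibrate, at 50 mg per kg of body weight daily over 60 days. The partner on every array was a single pool of total liver RNA from 5 control rats, whose sex, strain and vehicle the labels do not state. No age, dye or numbering of the rats is stated in the labels, so replicates 1 to 4 are only names, and the p-values measure technical spread if arrays shared a rat. Each value is a log2 ratio after the median of its array was subtracted, and a mean over 4 arrays was called positive or negative at a limma adjusted p under 0.05. The table holds ratios without intensities, so the liver markers could not be checked as levels. The number of arrays limits the precision.

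The labels name the treated liver as the first channel and give no dyes, which leaves the direction of the ratio unsettled. Of 13 tested clones of genes that textbooks list as induced by peroxisome proliferators, the members left out, 10 had a positive mean and 3 a negative one, or 9 and 4 without the array centring. Over all tested clones 2298 of 4704 means were above 0. Of the 13 panel clones 4 were called positive and 0 negative. The positive means of Hadhb, at 0.01, Cpt1b, at 0.05, and Cpt2, at 0.05, were close to 0. Positive ratios are taken as likely higher expression after ciprofibrate, from the channel order and the 10 of 13 positive means. An earlier analysis of these data used such a panel, so the count is no independent support for this direction. The arrays correlated pairwise over 4704 tested clones with r between 0.47 and 0.76, replicate 2 least with the others. Where on the slide a clone was printed also went with its ratio. In the layout inferred from the values, 8 printing blocks in 2 columns, the median mean ratio was 0.15 in the left column and -0.16 in the right column. Values after subtraction of a smooth surface fitted over the spots of each array are therefore given beside the results and are called position-corrected. Of the 10 positive clones of proliferator-induced genes 5 lay in the left column. Position-corrected, 9 of the 13 were positive, 3 of them called, and Cpt1a, the carnitine palmitoyltransferase of the mitochondrial outer membrane, was called negative at -0.35 ± 0.09 (SD, n = 4, limma adjusted p = 0.0315).

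Of the 5 member clones, 4 were called positive and 1 was called negative, against 13.6% and 15% of all 4704 tested clones. Fabp3, Fabp4, Acsl1 and the clone shared by Acot1 and Acot3 were positive on every array, and Acot2 was negative on every array. One sign on all 4 arrays was shown by 52.8% of the tested clones. The position of the clones bears on how these counts compare. Fabp3, Fabp4 and Acsl1 lay in the left column, where 25.4% of the clones were called positive. The Acot1 and Acot3 clone lay in the right column, where 1.38% were called positive, and so did Acot2, where 22.1% were called negative. After position correction 2 of the 5 clones were called, both positive, Fabp3 and the Acot1 and Acot3 clone, against 2.85% positive and 11.3% negative calls among all clones. Positive calls were then 2.14% in the left column, where Fabp3 lay, and 3.58% in the right column, where the Acot1 and Acot3 clone lay.

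**Figure D1:**
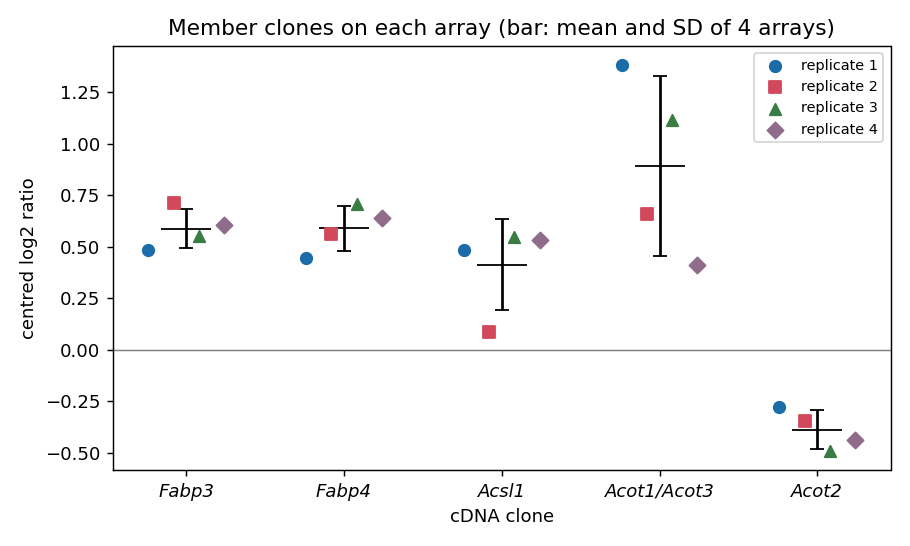
The vertical axis gives the centred log2 ratio of treated liver against the control pool, and each of the 5 clones has 4 points, 1 per array, with a bar for the mean and SD. Fabp3 and Fabp4 lie between 0.45 and 0.71 on all arrays, Acsl1 has replicate 2 near 0, the Acot1/Acot3 clone spreads from 0.41 to 1.38, and Acot2 lies below 0 throughout.

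Fabp3, the heart-type fatty acid binding protein, best known from striated muscle, had ratios of 0.49, 0.71, 0.55 and 0.60 (centred log2) on replicates 1 to 4. The values are close together, with replicate 2 highest and none near 0. Their mean was 0.59 ± 0.10 (SD, n = 4), a 1.504-fold difference that passed the threshold (limma adjusted p = 0.00768). The 2 spots of the clone had deposited ratios from 1.36 to 1.70 over the arrays and differed from each other by 0.03 to 0.15 (log2). Their gap was above the median gap of 0.09 among all clones printed in pairs only on replicate 4. Position correction left 0.36 ± 0.15 (SD, n = 4), and the call held (limma adjusted p = 0.0399). In its own printing block, where the median ratio was 0.09, only 3 of 617 tested clones were higher than Fabp3. The position-corrected Fabp3 ratio was above that of 98.3% of all tested clones, the same share as before correction.

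Fabp4, the adipocyte-type binding protein that macrophages and capillary endothelium also express, had ratios of 0.45, 0.56, 0.71 and 0.64 (centred log2). All are clearly above 0, with replicate 1 lowest and replicate 3 highest. The mean was 0.59 ± 0.11 (SD, n = 4), also 1.504-fold (limma adjusted p = 0.00799). The paired spots of Fabp4 agreed within 0.03 (log2) on every array. The local surface under the Fabp4 spots stood at 0.29, 0.01, 0.56 and 0.55 (log2) on replicates 1 to 4. Position-corrected ratios were 0.16, 0.48, 0.14 and 0.08, so that replicate 2 became the highest. The corrected mean of 0.22 ± 0.18 (SD, n = 4) was not called (limma adjusted p = 0.133), while subtraction of the block medians left a called 0.38 ± 0.15 (limma adjusted p = 0.0327).

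The 2 binding proteins had equal means, and their order changed from array to array. Fabp3 minus Fabp4 was 0.04, 0.15, -0.16 and -0.04 (log2) on replicates 1 to 4. The mean difference of -0.00047 ± 0.13 (SD, n = 4) lay within the spread between arrays (exact two-sided sign-flip permutation test, p = 1, where 4 arrays allow no p below 0.125). Position-corrected, Fabp3 was the higher on all 4 arrays, by 0.14 ± 0.05 (SD, n = 4, exact p = 0.125).

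Markers of other cell types that express these binding proteins were read beside them. In bulk liver RNA fewer cells of a type and less RNA per cell cannot be told apart. Of 9 striated muscle markers 3 were tested, and the contractile proteins Actc1, at 0.64 ± 0.20, and Tnnt2, at 0.63 ± 0.23 (log2, SD, n = 4), were called positive, while Tnni3 was at 0.27 ± 0.18. None of the 3 was called after position correction, where Actc1 was at 0.30 and Tnnt2 at 0.33. Of 9 adipocyte markers 3 were tested and limma called 0, with 1 at an unadjusted p under 0.05: Pparg was at 0.24 ± 0.08, Lipe at -0.08 ± 0.19 and Lpl at -0.23 ± 0.40. Of the macrophage markers Lyz2 alone was tested, at 0.18 ± 0.19. Of 2 endothelial markers Kdr was called positive at 0.40 ± 0.21, and not after position correction (0.14 ± 0.17), while Cdh5 was at -0.85 ± 0.85. All 7 tested clones of 6 hepatocyte markers had a negative mean, from -0.69 to -0.22. Each was lowest on replicate 2, the array that correlated least with the others. On replicate 1 the Alb clones, at 0.12 and 0.11, and Serpina1, at 0.12, were above 0, while Apoa1, Tf, Fgb and Ass1 were below 0. Limma called 2 of the 7, Tf, at -0.69 ± 0.20, and Fgb, at -0.49 ± 0.31. After position correction Tf was still called, at -0.66 ± 0.19 (limma adjusted p = 0.0110), and Fgb, at -0.38 ± 0.33, was not (limma adjusted p = 0.0879). Actc1, Tnnt2 and Kdr lay in the left column, where 25.4% of all tested clones were called positive. Tf and Fgb lay in the right column, where 22.1% were called negative. Over the whole slide 13.6% were called positive and 15% negative, and 2406 of 4704 means were below 0. Alb gave 2 of the 7 hepatocyte clones. The part of these cell types in the ratios of Fabp3 and Fabp4 was not tested.

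Acsl1, which couples long-chain fatty acids to coenzyme A on the endoplasmic reticulum and mitochondrial outer membrane, had ratios of 0.48, 0.08, 0.55 and 0.54 (centred log2) on replicates 1 to 4. On 3 arrays the ratio was nearly the same, and on replicate 2 it was close to 0. The 2 spots behind the low value had deposited ratios of 1.16 and 1.01, a gap of 0.19 (log2). The mean over the arrays was 0.41 ± 0.22 (SD, n = 4), a 1.33-fold difference (limma adjusted p = 0.0329). The call of Acsl1 ended without replicate 1 (0.39), 3 (0.37) or 4 (0.37), and without replicate 2 the mean was 0.52 (limma adjusted p = 0.00878, the lowest of 4 such values, the highest being 0.147). Positive calls over all clones also fell without replicate 1, 3 or 4, from 638 to 308, 99 and 134. They rose to 872 without replicate 2. In the left column, where Acsl1 was printed, 387 of 2387 tested clones were higher. Position correction left 0.08 ± 0.18 (SD, n = 4, limma adjusted p = 0.502), and replicate 2 was then below 0 at -0.15. The local surface at its spots lay between 0.17 and 0.48 (log2).

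**Figure D2:**
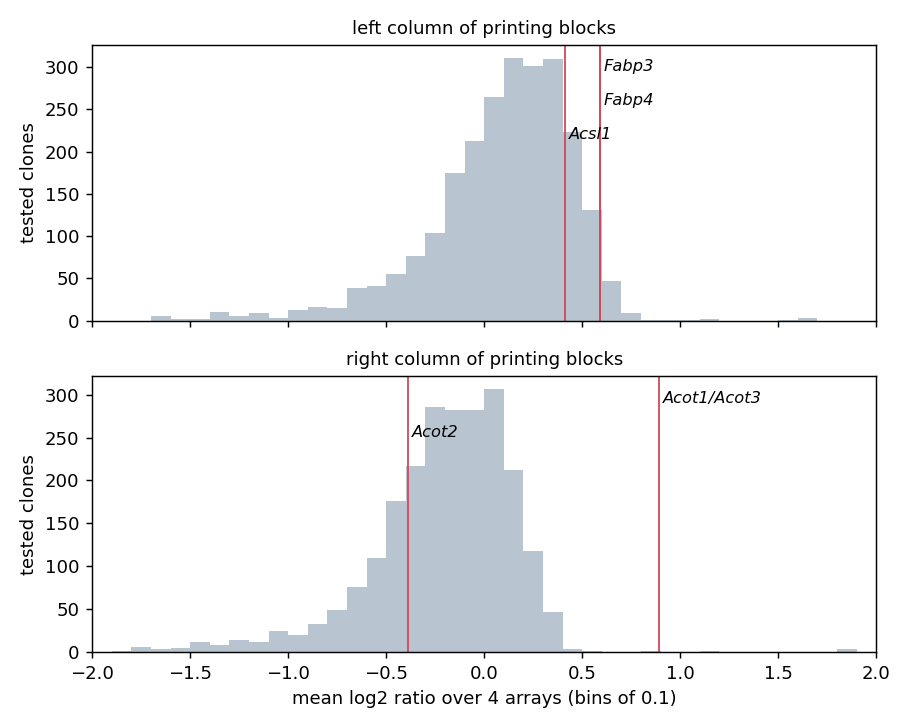
Each panel is a histogram of the mean log2 ratio (horizontal axis, bins of 0.1) of the tested clones (vertical axis, number) in 1 of the 2 columns of printing blocks, with red lines at the member clones. The left histogram is shifted to positive ratios, so that Acsl1 lies within its bulk and Fabp3 and Fabp4 on its upper edge, whereas the Acot1/Acot3 clone stands beyond nearly all clones of the right column and Acot2 lies inside it.

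The thioesterases undo the step that Acsl1 makes. Acot1 acts in the cytosol, Acot2 in mitochondria and Acot3, as known from mouse, in peroxisomes. Their genes neighbour each other on chromosome 6 in the GRCr8 assembly, in the order Acot2, Acot1, Acot4, Acot3, Acot5 and Acot6 among the protein-coding thioesterase genes, and are close copies. The annotation lists one clone under both Acot1 and Acot3, so the 2 transcripts cannot be told apart by it, and RNA of other copies could bind to any clone of the cluster. The clones of these neighbours had ratios of opposite sign, although Acot2 was not called after position correction (-0.17, limma adjusted p = 0.131). The bases upstream of the start sites of the 3 genes on the array are shown for that reason, and a link to the ratios was not tested. They are the 250 bases before each start, from RefSeq on GRCr8, 5′ to 3′, and capitals mark the window closest to the PPARα response element described next.
Acot2, chr6:109342590-109342839 (+ strand): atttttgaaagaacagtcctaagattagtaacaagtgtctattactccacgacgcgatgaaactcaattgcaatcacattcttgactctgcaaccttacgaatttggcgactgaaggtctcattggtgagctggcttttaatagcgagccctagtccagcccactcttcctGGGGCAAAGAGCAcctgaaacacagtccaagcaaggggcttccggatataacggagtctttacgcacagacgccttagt
Acot1, chr6:109367024-109367273 (+ strand): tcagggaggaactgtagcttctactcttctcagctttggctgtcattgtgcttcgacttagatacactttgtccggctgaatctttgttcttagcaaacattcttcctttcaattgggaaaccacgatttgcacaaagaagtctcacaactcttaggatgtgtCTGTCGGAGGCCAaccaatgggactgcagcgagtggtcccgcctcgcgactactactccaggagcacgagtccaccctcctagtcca
Acot3, chr6:109413447-109413696 (+ strand): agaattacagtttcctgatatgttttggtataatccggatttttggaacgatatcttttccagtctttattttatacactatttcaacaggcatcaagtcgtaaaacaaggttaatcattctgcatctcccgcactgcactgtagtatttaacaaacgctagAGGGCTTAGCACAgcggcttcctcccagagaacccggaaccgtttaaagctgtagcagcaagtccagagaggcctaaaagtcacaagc
The response element was searched as AGGTCANAGGTCA, that is 2 copies of AGGTCA with any base between, on both strands of 300 bases that reach 50 past the start. Promoters were on hand for 5 of the 6 members, all but Fabp4. No member promoter held the element exactly, or with 1 or 2 mismatches, against 0.0508%, 0.454% and 3.91% of 33469 promoters, and none held a single AGGTCA, which 16.2% of the promoters did. The marked windows of Acot1, Acot2 and Acot3 each have 4 mismatches, as close as in 80.5% of all promoters. The absence says only that these letters are not in these windows.

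The clone of Acot1 and Acot3 had the highest mean ratio of the members, with values of 1.38, 0.66, 1.12 and 0.41 (centred log2) on replicates 1 to 4. They spread widely, with replicates 1 and 3 high and replicate 4 lowest, and all were above 0. On replicates 1 and 3 it was the highest member, while on replicate 2 Fabp3 and on replicate 4 Fabp3, Fabp4 and Acsl1 were higher. The deposited ratios of its 2 spots were 2.86 and 2.35 on replicate 1, and 1.29 and 1.23 on replicate 4. The gap between the paired spots was 0.28, 0.09, 0.21 and 0.07 (log2) on replicates 1 to 4. The mean was 0.89 ± 0.44 (SD, n = 4), a 1.86-fold difference (limma adjusted p = 0.0107). In the right column only 5 of 2317 tested clones were higher, and over the whole slide it was above 99.7% of clones. The local surface at its spots lay between 0.01 and 0.26 (log2). Position correction left 0.78 ± 0.43 (SD, n = 4), still called (limma adjusted p = 0.0328). The call also held without each array in turn, at means from 0.73 to 1.05 (limma adjusted p from 0.0112 to 0.0419). Position-corrected and without replicate 2, a combination chosen after the data were seen, the mean was 0.84 and the call ended (limma adjusted p = 0.0630).

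The single spot of Acot2 had ratios of -0.28, -0.34, -0.49 and -0.44 (centred log2), from deposited ratios of 0.82, 0.80, 0.69 and 0.70. The 4 values lie close together and below 0. The mean was -0.39 ± 0.09 (SD, n = 4), a 1.31-fold difference in the opposite direction to the other members (limma adjusted p = 0.0237). Among all tested clones it was not far out, since 17.2% had lower means, and 25.2% of those in the right column. The local surface at the spot was -0.13, -0.12, -0.38 and -0.33 (log2) on replicates 1 to 4. Position correction left -0.17 ± 0.08 (SD, n = 4), negative on all 4 arrays and not called (limma adjusted p = 0.131). The call of Acot2 also ended without replicate 1 (-0.42), 3 (-0.35) or 4 (-0.37), and the adjusted p (limma) ran from 0.0180 to 0.133 with 1 array left out. Without replicate 1, 3 or 4 negative calls over all clones also fell, from 706 to 388, 323 and 354.

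The contrast between the thioesterase clones was read within each array, which cancels whatever the array shares but not the position. The Acot1 and Acot3 clone exceeded Acot2 by 1.66, 1.002, 1.61 and 0.85 (log2) on replicates 1 to 4. It was the higher on 4 of 4 arrays, by 1.28 ± 0.41 (SD, n = 4), or 2.43-fold, which an exact two-sided sign-flip permutation test gives the smallest p that 4 arrays allow, 0.125 (0.188 adjusted over 3 pairs). Acsl1 exceeded Acot2 on 4 of 4 arrays as well, by 0.80 ± 0.27 (SD, n = 4, exact p = 0.125, adjusted 0.188). Position-corrected, these differences were 0.95 ± 0.43 and 0.25 ± 0.13 (SD, n = 4), again positive on 4 of 4 arrays (exact p = 0.125 for each). The first kept most of its size and the second lost most of it.

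**Figure D3:**
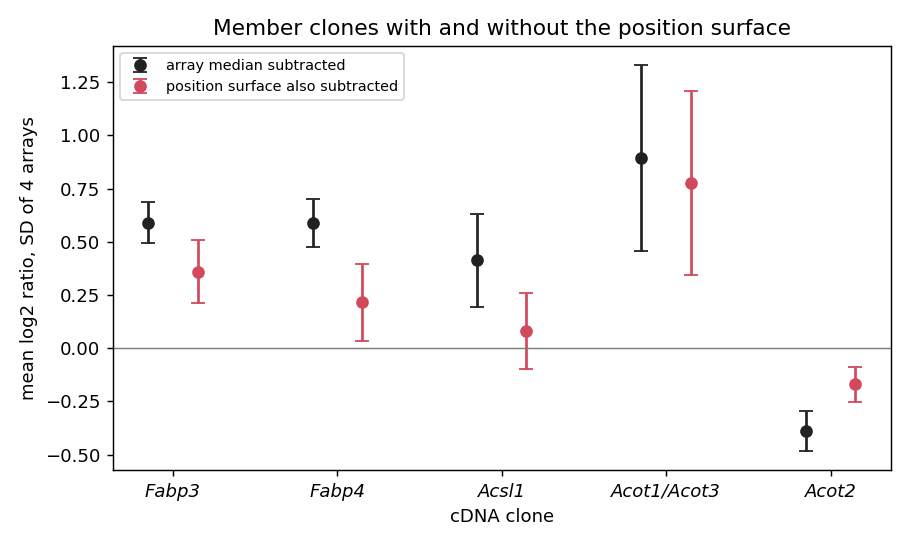
For each of the 5 clones the vertical axis gives the mean log2 ratio with its SD over 4 arrays, in black after the array median was subtracted and in red after the position surface was subtracted too. The Acot1/Acot3 clone goes from 0.89 to 0.78 and Fabp3 from 0.59 to 0.36, whereas Acsl1 goes from 0.41 to 0.08 and Acot2 from -0.39 to -0.17.

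The other genes of the same steps were read from a list of 78 genes in 6 groups, of which 21 were tested on 23 clones. Among these clones 1 was called positive, 3 negative and 19 were not called, so that 17.4% were called either way against 28.6% of all tested clones. Of 4 clones of intracellular binding proteins, with a median ratio of -0.11, Fabp9, a testis-type relative of the member binding proteins, was called negative at -0.88 ± 0.51 (log2, SD, n = 4). Its ratios of -1.14, -0.17, -0.88 and -1.35 vary widely, and the call held after position correction at -0.83. The epidermal-type Fabp5 was at 0.18 ± 0.09, the acyl-CoA binding protein Dbi at 0.29 ± 0.24 and the sterol carrier Scp2 at -0.41 ± 0.48, all uncalled. The retinoic acid binding protein Crabp2, of the same protein fold, was at 0.28 ± 0.12, also uncalled. The liver-type Fabp1 was not among the tested clones. The median over all tested clones was -0.01.

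None of 8 clones for fatty acid uptake and release was called by limma, with 2 at an unadjusted p under 0.05 and a median of -0.11. They included the very long-chain acyl-CoA synthetase Slc27a2 at -0.27 ± 0.21 and the monoglyceride lipase Mgll, whose 3 clones stood at 0.30, 0.17 and -0.14 (log2) and so disagreed in sign. None of the 3 tested relatives of Acsl1 was called by limma, and 0 had an unadjusted p under 0.05. The synthetases Acsl3, at -0.21 ± 0.42, and Acsl5, at 0.01 ± 0.56 (log2, SD, n = 4), each had their lowest value on replicate 2, at -0.85 and -0.80. The medium-chain synthetase Acsm2, at -0.0018 ± 0.42, was instead at 0.12 on replicate 2 and lowest on replicate 4, at -0.56. Of the other related clones Lipe, Lpl, Lipc, the Mgll clone at -0.14, Scp2, Dbi, Acot7, Ppt2, Lypla1 and Ppcdc were lowest on replicate 2 as well. Fabp9, Fabp5, Crabp2, Ppt1 and the Mgll clones at 0.30 and 0.17 were highest there. Slc27a1, Slc27a2, Acot13 and Slc25a42 were neither. Among the cell type markers every tested hepatocyte clone and Lyz2 were lowest on replicate 2. Pparg, Tnni3, Actc1, Kdr and Cdh5 were highest there, and Tnnt2 was neither.

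Of 5 other hydrolases of thioesters, Acot7, a cytosolic thioesterase best known from brain, was called positive at 0.47 ± 0.21 (log2, SD, n = 4, limma adjusted p = 0.0216). It lay in the left column and was at 0.10 ± 0.06 and uncalled after position correction. Its call ended without replicate 1, 3 or 4, where positive calls over all clones also fell, from 638 to 308, 99 and 134. Lypla1, a lysophospholipase that also removes acyl groups from proteins, was called negative at -0.33 ± 0.11 (limma adjusted p = 0.0385), and was at -0.22 ± 0.10 and uncalled after correction. Acot13, a small mitochondrial thioesterase, was at 0.08 ± 0.36, and the lysosomal palmitoyl-protein thioesterases Ppt1 and Ppt2 were at 0.19 ± 0.27 and 0.02 ± 0.24. Of 2 clones for coenzyme A supply, Ppcdc, the decarboxylase of coenzyme A synthesis, was called negative at -0.80 ± 0.48, with replicate 2 lowest at -1.50. After position correction it was at -0.71 ± 0.48 and still called (limma adjusted p = 0.0491).

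**Figure D4:**
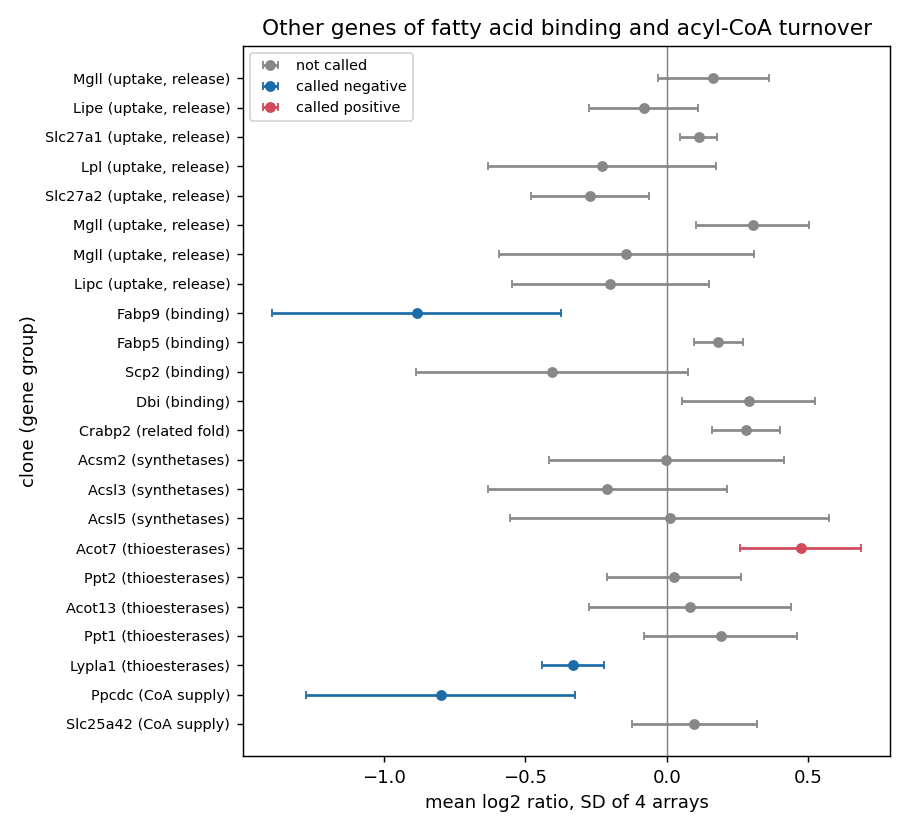
The horizontal axis gives the mean log2 ratio with its SD over 4 arrays for the 23 tested clones of related genes, 1 per line with the gene group in brackets, coloured by call. Acot7 is the positive call at 0.47, Fabp9, Lypla1 and Ppcdc are the negative calls, and the other 19 clones scatter around 0.

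The clones most like each member were found by the root mean square difference of the 4 centred ratios among 2703 other tested clones with 1 symbol, as a description of likeness over 4 arrays. Nearest to Fabp3 were Cox6c, a cytochrome oxidase subunit, at a difference of 0.05 (log2), and Nt5dc2, at 0.05. Nearest to Fabp4 were Myl1, a myosin light chain of skeletal muscle, at 0.02, and Ifrd1, at 0.04. Nearest to Acsl1 were Hspa1l and Gch1, the first enzyme of tetrahydrobiopterin synthesis, both at 0.07. All 6 of these clones lay in the left column, as did the members they resemble. Nearest to Acot2, of the right column, were Ciapin1, at 0.05 and also in the right column, and Sppl3, at 0.06 and in the left column. The Acot1 and Acot3 clone had no close match. The difference is not scaled, and only 13 of all 4704 tested clones had a higher mean than this clone, so few lay near it. The nearest was Pomc, the hormone precursor, at 0.39 and in the right column like this clone, followed by the mitochondrial chaperonin Hspe1 of the left column at 0.42, differences several times larger than for any other member.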

How the data were processed

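Total RNA of treated livers was set against 1 control pool on 4 two-colour arrays of 7688 spots. The study had 4 treated rats, and the labels do not say which rat each array carried. The authors deposited 1 value per spot, and the unit, log10 of a ratio, was read from the values. The scanner, background correction, filters, normalization and ratio direction are not stated in the labels or the file. The most repeated value of each array (1171 to 1189 spots) was taken as missing. Values were converted to log2. Gene symbols come from an older platform annotation, which lists 5252 probes, and were updated through gene numbers for 5140. Spots of a clone were averaged and the array median subtracted. Clones with values on all 4 arrays were tested against 0 in R 4.3.3 with limma 3.58.1 (lmFit, eBayes, Benjamini-Hochberg over 4704 clones). The fit was run on simulated data with independent noise and no position effect. That run therefore cannot vouch for calls on arrays where ratios went with position. The pool is 1 control sample, so the spread between control rats is left out.

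The layout (8 blocks of 31 by 31 spots) was inferred, and the position surface is a robust loess (span 0.05, degree 1, 4 iterations). Alternatives were other scalings, row units, filters, priors, position corrections and each array left out. Named were every member clone, every called clone of the related lists and, for each member, the 2 most similar clones; other genes of the lists were named after their values were seen. Members and lists were chosen with earlier results of these data known. Backgrounds by slide column were added after the data were seen.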

Additional observations from a re-analysis of the deposited data

Results flagged for a closer look

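Acsl1 on replicate 2 stood apart from the other arrays. Its centred log2 ratio there was 0.084, against 0.48 to 0.55 on the other 3. The gap to the nearest array was 0.861 of the whole range, above Dixon's critical value. Of 9 clones given this test 1 was set apart. Chance sets a single clone apart in about 1 group of 20, and at least 1 of 9 clones more often than that.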

How the results depend on the processing

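With the position surface subtracted the call ended for Fabp4 (0.22), Acsl1 (0.082) and Acot2 (-0.17), leaving 2 positive and 0 negative member calls, and with replicate 2 also left out for Fabp4 (0.13), Acsl1 (0.16), Acot2 (-0.13) and the Acot1 and Acot3 clone (0.84), leaving 1 and 0. With block medians subtracted it ended for Acsl1 (0.20) and Acot2 (-0.21), leaving 0 negative member calls. With the most repeated value kept as a ratio it ended for Acot2 (-0.28), leaving 0, and with each spot a row it ended for the second spot of Acsl1 (0.34). No centring, quantile normalization, a robust prior, values on at least 3 arrays and one row per gene changed no member call. Leaving out 1 array gave means of 0.55 to 0.62 for Fabp3, 0.55 to 0.64 for Fabp4, 0.37 to 0.52 for Acsl1, 0.73 to 1.05 for the Acot1 and Acot3 clone and -0.42 to -0.35 for Acot2, with 3 to 4 positive and 0 to 1 negative member calls. The difference of Fabp3 and Fabp4 changed sign with block medians (0.10) or the surface (0.14) subtracted and without replicate 3 (0.051) or 4 (0.01), and ran from -0.052 to 0.051 with 1 array left out. Over all clones, 638 positive and 706 negative calls became 134 positive with the surface, 380 positive with block medians, 993 positive and 462 negative with the most repeated value kept, and 99 to 872 positive and 323 to 895 negative with 1 array left out. Related genes had 1 positive call, against 2 with quantile normalization, 0 with the surface, 4 with the most repeated value kept and 0 to 2 with 1 array left out, and 3 negative calls, against 1 to 3 with 1 array left out. The cause was not tested for the setting that kept the most repeated value. Fits of 3 arrays have fewer samples, but calls over all clones did not fall in each of them. Without replicate 2 they rose to 872 positive and 895 negative. Without replicate 1, 3 or 4 they fell to 308, 99 and 134 positive and to 388, 323 and 354 negative. The cause of this was not tested. No paired analysis was possible because every array holds a treated and the same control RNA and there is 1 group. The table holds no intensities, so signal over background is unknown.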
